A study of Caenorhabditis elegans with 4 samples.

Results

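The 6 genes described here encode lipases of *Caenorhabditis elegans* that free fatty acids from stored fat: *lipl-1*, *lipl-3*, *lipl-4* and *lipl-5*, *atgl-1* and *hosl-1*. They were taken by locus tag from a table of 21895 genes, and 6 of 6 passed the filter on low counts. The rule used none of their measured values, but it was drawn up with earlier results of these data known. Whole N2 worms, the laboratory wild type, were shaken for 24 h in M9 buffer with the cyclic dipeptide Cyclo(Pro-Tyr), made of proline and tyrosine, at 0.25 mg/mL or with its solvent DMSO, with 2 libraries in each group. The animals are given as embryos or L1 larvae, the protocol gives 19 °C and the series text 20 °C, and no food is named for the incubation in either group. The comparison asks which genes change expression under the compound, which the study set beside survival and lifespan. Nothing states that the libraries came from separate cultures, so p-values measure only the spread between these libraries, which may be technical.

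Fat in the worm lies in lipid droplets, mostly of the intestine and epidermis, and is broken down by lipases at separate sites. The LIPL proteins are relatives of the lysosomal acid lipase and work inside lysosomes on lipid delivered there, while ATGL-1 and HOSL-1, the worm counterparts of adipose triglyceride lipase and hormone-sensitive lipase, work at the droplet surface in the cytosol. In fasted worms *lipl-1* and *lipl-3* are known to be switched on by the transcription factor HLH-30 and, in fed worms, held down by MXL-3.

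Library totals ran from 40240674 to 52987317 counts. The libraries of each group lay on their own side of the first principal component, and Cyclo(Pro-Tyr) replicate 2 lay farthest out, at 51.4 against 13.9 for Cyclo(Pro-Tyr) replicate 1 and -26.2 and -39.1 for DMSO replicates 1 and 2. All 31 marker genes of intestine, epidermis, body wall muscle, neurons and germline had counts in each library, and 0 of them passed the test by edgeR. Levels are given as CPM, the count of a gene scaled to library size with the TMM method of edgeR, and fold changes as log2 of Cyclo(Pro-Tyr) over DMSO. A gene was called where its p by edgeR's quasi-likelihood test, adjusted over all 19439 tested genes, was below 0.05.

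The fold changes of the lipases took both signs. By edgeR's test 1 of the 6 was called, *lipl-1*, which was lower in Cyclo(Pro-Tyr), and 0 were called higher. Of all tested genes 2.05% were called, 1.33% lower and 0.715% higher. At an unadjusted edgeR p below 0.05 there were 4 of the 6 members, against 27.3% of all tested genes. DESeq2's Wald test called 2 members, *lipl-1* and *atgl-1*, and 9.2% of all genes. In all 6 members the treated libraries lay on one side of both DMSO libraries, as they did in 60.5% of tested genes. The log2 fold changes of *lipl-1*, *lipl-3* and *lipl-4* were negative and those of *lipl-5*, *atgl-1* and *hosl-1* positive, so the median over the members, -0.22, describes neither group of genes. The median of all tested genes was -0.0032.

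**Figure D1:**
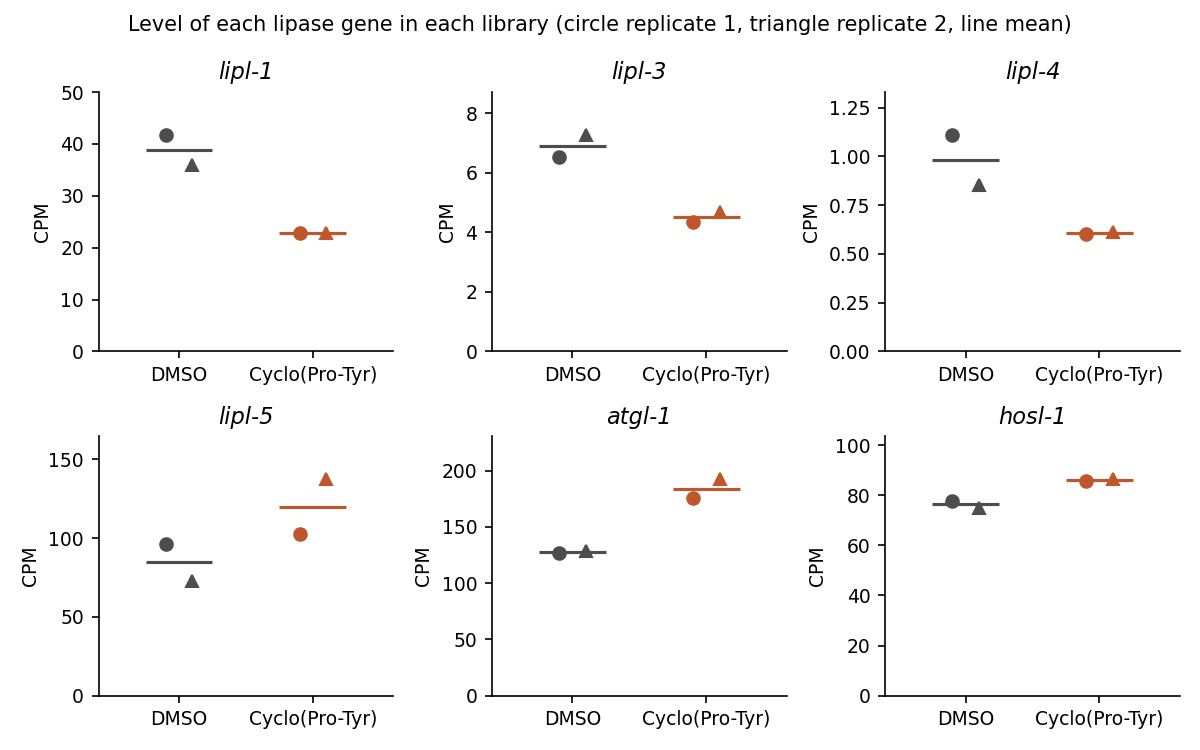
Level of each of the 6 lipase genes in CPM (vertical axes from 0, a scale of its own for each gene) in the DMSO and Cyclo(Pro-Tyr) libraries, with circles for replicate 1, triangles for replicate 2 and a line at the mean of 2 libraries. The treated libraries lie below the DMSO libraries for *lipl-1*, *lipl-3* and *lipl-4* and above them for *lipl-5*, *atgl-1* and *hosl-1*.

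Among the lysosomal lipases, *lipl-1* (CELE_F54F3.3) had 41.7 and 35.9 CPM in DMSO replicates 1 and 2 and 22.9 and 22.8 CPM in Cyclo(Pro-Tyr) replicates 1 and 2. Both treated libraries were lower than both DMSO libraries, and they differed from each other by less than the counting error, whose 95% Poisson intervals were 21.7 to 24.2 and 21.3 to 24.3 CPM. The mean fell from 38.8 ± 4.06 to 22.8 ± 0.108 CPM (SD, n = 2), a log2 fold change of -0.76 (standard error 0.12) and an edgeR adjusted p of 0.0354. The level of *lipl-1* in treated worms was 0.588 times that in DMSO, with a 95% interval of 0.487 to 0.711. In whole worms, fewer cells that make a transcript and less transcript per cell cannot be told apart. The call was lost without DMSO replicate 1, at an edgeR adjusted p of 0.219 and a log2 fold change of -0.65, and without DMSO replicate 2, at 0.339 and -0.87. Over its alternatives the adjusted p ran from 1.85e-04 to 0.339. Over the whole table the first of those fits by edgeR made 0 calls (3649 genes had an unadjusted p under 0.05) and the second made 4. With a filter of 5 CPM in 2 libraries the edgeR adjusted p of *lipl-1* was 0.0671, and no gene of the table was called there (3736 had an unadjusted p under 0.05).

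The second fasting lipase, *lipl-3* (CELE_R11G11.14), was much less abundant. It had 6.54 and 7.25 CPM in the DMSO libraries and 4.34 and 4.69 CPM in the treated libraries, from 336, 314, 231 and 183 counts. The groups did not overlap, and both treated values were below both DMSO values. Its means were 6.895 ± 0.507 and 4.51 ± 0.248 CPM (SD, n = 2), a log2 fold change of -0.61 (standard error 0.16), and it missed the threshold at an edgeR adjusted p of 0.073. DESeq2's Wald test also left it above the threshold, at an adjusted p of 0.0575, and over the alternatives without a replicate block it ran from 0.0575 to 0.38. In the annotation 23 bases of its exons are shared with *srw-107* on the same strand, which leaves a small part of its counts uncertain.

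The rarest member was *lipl-4* (CELE_K04A8.5), known for its rise in worms without a germline and for the longer life of worms that overexpress it. It had 57 and 37 counts in the DMSO libraries and 32 and 24 in the treated ones, which is 1.11, 0.855, 0.601 and 0.615 CPM. At this depth the 95% Poisson intervals of DMSO replicates 1 and 2 were 0.840 to 1.44 and 0.602 to 1.18 CPM. Each overlapped those of both treated libraries, 0.411 to 0.848 and 0.394 to 0.915 CPM. The log2 fold change was -0.70 (standard error 0.31) and an edgeR adjusted p of 0.196, and its 95% interval, -1.43 to 0.029, held both a decrease larger than that of *lipl-1* and no change.

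The most abundant of the LIPL members was *lipl-5* (CELE_ZK6.7), another lipase reported to respond to fasting. It had 96.2 and 72.8 CPM in the DMSO libraries and 102 and 137 CPM in the treated libraries. The treated libraries were above the DMSO libraries, but the gap between DMSO replicate 1 and Cyclo(Pro-Tyr) replicate 1 was smaller than the spread within either group. The means were 84.5 ± 16.5 and 120 ± 24.5 CPM (SD, n = 2), a log2 fold change of 0.50 (standard error 0.18) and an edgeR adjusted p of 0.125. Without Cyclo(Pro-Tyr) replicate 2 the log2 fold change was 0.28, and without DMSO replicate 2 it was 0.31. Without DMSO replicate 1 it was 0.72, and leaving out Cyclo(Pro-Tyr) replicate 1 gave 0.70.

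At the droplet surface, *atgl-1* (CELE_C05D11.7), the triglyceride lipase that starts the breakdown of stored fat in the cytosol, had 127 and 128 CPM in the DMSO libraries and 175 and 192 CPM in the treated libraries. The DMSO libraries were close to each other and both treated libraries stood above them. The means were 128 ± 0.97 and 184 ± 11.8 CPM (SD, n = 2), a ratio of 1.44 with a 95% interval of 1.21 to 1.71. The log2 fold change was 0.52 (standard error 0.11), and its edgeR adjusted p of 0.0537 missed the threshold. With all 4 libraries and no replicate block, it was past the threshold with upper-quartile scaling, at 0.0429, and with the robust edgeR fit, at 0.0491. It was also past the threshold with DESeq2's Wald test, at 0.00376. With the replicate number as a block its edgeR adjusted p was 0.114. With library totals instead of TMM its edgeR adjusted p was 0.0629, and where 5 CPM in 2 libraries was required it was 0.0807. With single libraries left out its log2 fold change ran from 0.46 to 0.59.

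The hormone-sensitive lipase gene *hosl-1* (CELE_C46C11.1) had the smallest difference of the 6. Its values were 77.9 and 74.8 CPM in the DMSO libraries and 85.9 and 86.3 CPM in the treated libraries. The groups did not overlap, yet the log2 fold change was only 0.17 (standard error 0.099) and an edgeR adjusted p of 0.295. In absolute size 63.2% of tested genes had a larger change. The 95% interval of the ratio for *hosl-1*, 0.961 to 1.32, holds no change and also overlaps the interval of *atgl-1*.

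**Figure D2:**
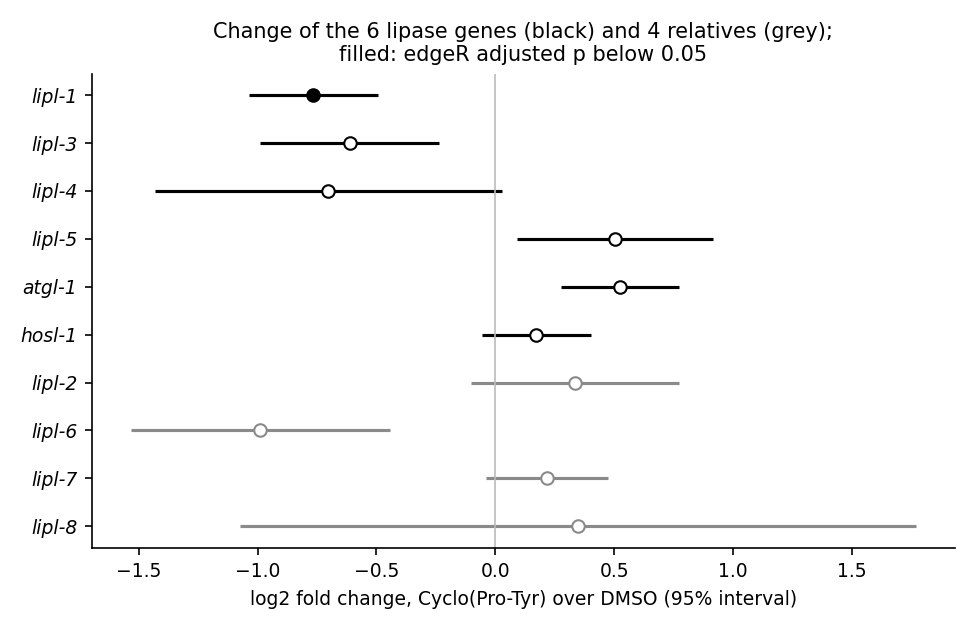
The log2 fold change of Cyclo(Pro-Tyr) over DMSO (horizontal axis) for the 6 lipase genes (black) and 4 further *lipl* genes (grey), with 95% intervals from the edgeR fit and filled points for an edgeR adjusted p below 0.05. Only *lipl-1* is filled, at -0.76, and the interval of *atgl-1* lies above 0 although its adjusted p of 0.0537 missed the threshold.

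Ratios of counts within a library do not depend on how libraries are scaled. There were 3.05 and 3.57 *atgl-1* counts for each *lipl-1* count in the DMSO libraries and 7.65 and 8.44 in the treated libraries. For *lipl-5* there were 2.31 and 2.03 counts for each *lipl-1* count in DMSO and 4.47 and 6.02 under the compound. Both ratios were higher in both treated libraries than in both DMSO libraries. That follows from the levels given above and adds no support to them. The ratio of *lipl-1* to *lipl-3* counts, 6.38 and 4.96 in DMSO and 5.29 and 4.86 in treated worms, overlapped between groups, as did that of *atgl-1* to *lipl-5*, at 1.32 and 1.76 in DMSO and 1.71 and 1.40 in treated worms. The *atgl-1* to *hosl-1* ratio was 1.63 and 1.72 in DMSO and 2.04 and 2.23 in treated worms, with no overlap. These ratios are given as values without a test.

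Set per kilobase of annotated exon, so that genes can be compared with each other, the order of levels in DMSO was *lipl-5* (67.0 CPM per kb on average), *atgl-1* (48.4), *lipl-1* (29.0), *hosl-1* (22.2), *lipl-3* (4.80) and *lipl-4* (0.594). In the treated libraries it was *lipl-5* (94.97 CPM per kb), *atgl-1* (69.6), *hosl-1* (25.03), *lipl-1* (17.1), *lipl-3* (3.14) and *lipl-4* (0.368). No neighbours in either order overlapped between their libraries, and *lipl-1* and *hosl-1* changed places. In DMSO *lipl-1* had 31.2 and 26.9 CPM per kb and *hosl-1* had 22.7 and 21.7. In treated worms *lipl-1* had 17.1 and 17.0 CPM per kb and *hosl-1* had 24.97 and 25.1. As a share of the summed level of the 6 genes per length, *lipl-1* made up 17.0% and 16.7% in the DMSO libraries and 8.88% and 7.49% in the treated ones. The share of *lipl-5* was 41.6% and 35.9% in DMSO and 42.0% and 47.8% in treated worms. The exon lengths come from a WBcel235 annotation that may not be the one behind the counts.

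**Figure D3:**
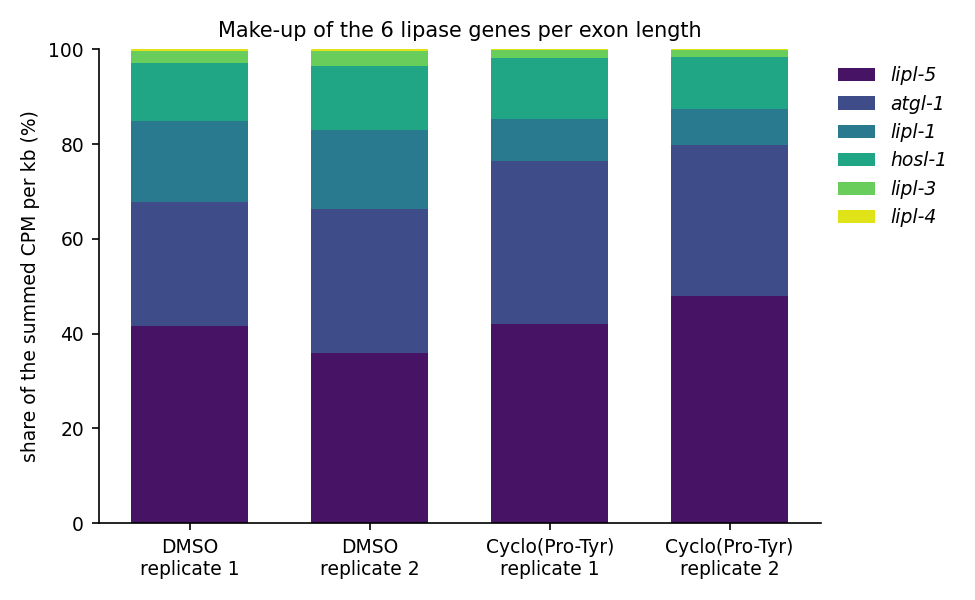
Share of each gene in the summed CPM per kb of the 6 lipase genes (stacked bars, vertical axis in percent) in each of the 4 libraries. The *lipl-1* segment narrows from 17.0% and 16.7% in the DMSO libraries to 8.88% and 7.49% in the Cyclo(Pro-Tyr) libraries.

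The 4 remaining *lipl* genes, which code for relatives of the same lysosomal lipase family, gave 0 calls in either direction by edgeR. At an unadjusted p under 0.05 there was 1, against 27.3% of all tested genes. Their median log2 fold change was 0.28, and it was 0.04 or 0.17 with DMSO replicate 1 or 2 left out and 0.12 with Cyclo(Pro-Tyr) replicate 2 left out. The largest difference was in *lipl-6* (CELE_Y57E12B.3), at 8.66 and 12.3 CPM in DMSO and 6.20 and 4.25 CPM in treated worms, a log2 fold change of -0.99 (standard error 0.23) and an edgeR adjusted p of 0.0634. DESeq2's Wald test called it, at an adjusted p of 0.00475, and its log2 fold change ran from -1.29 to -0.72 without single libraries. The abundant *lipl-2* (CELE_F46B6.8) overlapped between groups, with 112 and 91.5 CPM in DMSO and 104 and 153 CPM in treated worms. Its log2 fold change was 0.34, or 0.59 and 0.03 with Cyclo(Pro-Tyr) replicate 1 and 2 left out. For *lipl-7* (CELE_F01G10.7) the log2 fold change was 0.22 at an edgeR adjusted p of 0.244. For *lipl-8* (CELE_Y50E8A.7), which had between 5 and 12 counts in a library, it was 0.35 (standard error 0.61), and its sign turned without DMSO replicate 1, to -0.23.

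The class 3 lipases (*lips* genes), a separate lipase family, held 1 call lower and 0 higher among 15 tested genes, with a median log2 fold change of -0.12. Of all tested genes 1.33% were called lower and 0.715% higher. At an unadjusted edgeR p under 0.05 there were 5 of the 15, 1 higher and 4 lower, against 27.3% of all tested genes. The called gene, *lips-9* (CELE_F58G1.5), had 13.4 and 15.5 CPM in the DMSO libraries and 7.30 and 5.48 CPM in the treated ones. Both treated libraries were below both DMSO libraries, and the log2 fold change was -1.17 (standard error 0.18) and an edgeR adjusted p of 0.0347. The call was lost without DMSO replicate 1 and without DMSO replicate 2, at log2 fold changes of -1.27 and -1.06. It was also lost where 5 CPM in 2 libraries was required, at an edgeR adjusted p of 0.068. The list median moved with single libraries, to 0.04 without Cyclo(Pro-Tyr) replicate 1, -0.02 without DMSO replicate 1 and -0.08 without DMSO replicate 2. With another filter, 5 CPM in 2 libraries, it was -0.47.

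Partners of the droplet lipases gave 0 calls among 18 tested genes by edgeR and a median log2 fold change of 0.04. Of them 10 had an unadjusted p under 0.05, 6 higher and 4 lower, against 27.3% of all tested genes. Leaving out replicate 2 of DMSO or of Cyclo(Pro-Tyr) made that median -0.04 or -0.02, and leaving out replicate 1 of either made it 0.17 or 0.15. Closest to the threshold was *lbp-5* (CELE_W02D3.7), which codes for a fatty acid binding protein, at 30.8 and 26.7 CPM in DMSO and 20.1 and 19.3 CPM in treated worms (log2 fold change -0.54, edgeR adjusted p 0.0579). Next was *aak-1* (CELE_PAR2.3), a catalytic subunit of the AMP-activated kinase, at 35.8 and 35.1 CPM in DMSO and 45.0 and 56.6 CPM in treated worms (log2 fold change 0.52, edgeR adjusted p 0.0698). DESeq2's Wald test called both, at adjusted p of 0.0171 and 0.0258. Without Cyclo(Pro-Tyr) replicate 1 their log2 fold changes were -0.57 and 0.67, and without Cyclo(Pro-Tyr) replicate 2 they were -0.51 and 0.35. The exons of *aak-1* overlap *sma-2* on the opposite strand, which makes the *aak-1* count uncertain. The perilipin gene *plin-1* and the ATGL-1 activator gene *lid-1* were added after their values were seen, for their known role at the droplet. Their log2 fold changes were -0.54 for *plin-1* and -0.18 for *lid-1*, with edgeR adjusted p of 0.0934 and 0.28.

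Among 18 regulators of lipase genes and fat use, 1 was called higher and 0 lower, and the median log2 fold change was 0.21. Of all tested genes 0.715% were called higher. At an unadjusted edgeR p under 0.05 there were 7 of the 18, all higher, against 27.3% of all tested genes in either direction. Of the 18 log2 fold changes 15 were positive, against 49.7% of those of all tested genes. The called gene was *daf-16* (CELE_R13H8.1), the FoxO transcription factor downstream of insulin signalling. It had 142 and 150 CPM in the DMSO libraries and 232 and 258 CPM in the treated libraries. Both treated libraries were well above both DMSO libraries, with a log2 fold change of 0.75 (standard error 0.11) and an edgeR adjusted p of 0.0354. Among other fits, the call of *daf-16* was lost without DMSO replicate 1, at 0.219, and without DMSO replicate 2, at 0.339, as well as where 5 CPM in 2 libraries was required, at 0.0671. Its lowest was 1.81e-05, with DESeq2's Wald test. The known regulators of *lipl-1* and *lipl-3* fall outside the naming rule and were added after their values were seen. The activator gene *hlh-30* had 163 and 183 CPM in DMSO and 194 and 111 CPM in treated worms, so that its treated libraries lay on either side of the DMSO libraries (log2 fold change -0.18, edgeR adjusted p 0.653). The repressor gene *mxl-3* overlapped between groups as well, with 56.0 and 42.1 CPM in DMSO and 63.5 and 54.9 CPM in treated worms (log2 fold change 0.27, edgeR adjusted p 0.289).

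**Figure D4:**
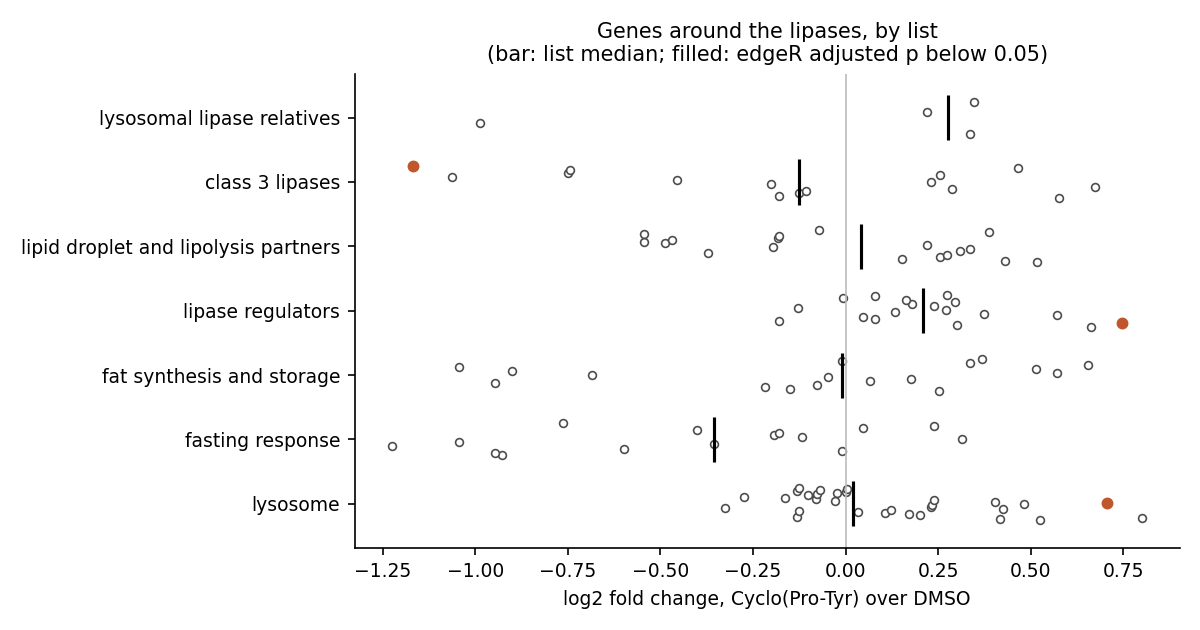
The log2 fold change of Cyclo(Pro-Tyr) over DMSO (horizontal axis) of each tested gene in 7 lists of genes around the lipases, with a bar at each list's median and filled points for an edgeR adjusted p below 0.05. There are 3 filled points, *lips-9* lower and *daf-16* and *ncr-2* higher, and the median farthest below 0 is that of the fasting response list, at -0.36.

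The genes of fat synthesis and storage gave 0 calls among 17 by edgeR. Of them 10 had an unadjusted p under 0.05, 6 higher and 4 lower, against 27.3% of all tested genes. The list's median log2 fold change was -0.0086, and its sign depended on single libraries. It was 0.13 when DMSO replicate 1 was left out, -0.06 when DMSO replicate 2 was, and -0.08 and 0.07 for replicates 1 and 2 of Cyclo(Pro-Tyr). The gene *lpin-1* (CELE_H37A05.1), for the lipin phosphatase that makes diacylglycerol, had 453 and 436 CPM in DMSO and 650.2 and 751 CPM in treated worms. Its groups did not overlap, and its log2 fold change of 0.66 had an edgeR adjusted p of 0.0537. It was called by DESeq2's Wald test, at an adjusted p of 3e-04, and by limma's voom fit, at 0.0488. By edgeR it was called with upper-quartile scaling, at 0.0459, and with the robust fit, at 0.0472. With the replicate number as a block it was not called, at an edgeR adjusted p of 0.131. Without Cyclo(Pro-Tyr) replicate 1 or 2 its log2 fold change was 0.76 or 0.55. The gene *dgat-2* (CELE_F59A1.10), for a diacylglycerol acyltransferase of the last step of fat synthesis, had 74.7 and 71.3 CPM in DMSO and 46.7 and 28.9 CPM in treated worms. Its log2 fold change was -0.95 at an edgeR adjusted p of 0.0556, and it overlaps F59A1.11 on the opposite strand, which leaves part of its counts uncertain. DESeq2's Wald test called *dgat-2*, at an adjusted p of 7.6e-04, as did edgeR with upper-quartile scaling, at 0.0423. With Cyclo(Pro-Tyr) replicate 1 or 2 left out its log2 fold change was -1.34 or -0.64.

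The fasting response list, of which 15 of 16 genes had a row in the table, gave 0 calls by edgeR. It had 7 genes at an unadjusted p under 0.05, 0 higher and 7 lower, against 27.3% of all tested genes. Of its 15 log2 fold changes 12 were negative, and the median was -0.36, or -0.23 without Cyclo(Pro-Tyr) replicate 2. Of all tested genes 49.7% had a positive log2 fold change. The list was not sorted by the direction in which fasting moves its genes. The gene nearest to a call was *ech-1.1* (CELE_C29F3.1), of the trifunctional enzyme of mitochondrial fatty acid oxidation, at 51.5 and 66.6 CPM in DMSO and 32.5 and 17.8 CPM in treated worms (log2 fold change -1.22, edgeR adjusted p 0.0545). The Δ9 desaturase gene *fat-7* (CELE_F10D2.9), which the fat synthesis list also holds, had 2.76 and 3.67 CPM in DMSO and 1.78 and 1.28 CPM in treated worms (log2 fold change -1.04, edgeR adjusted p 0.068). DESeq2's Wald test called both genes, at adjusted p of 1.67e-04 for *ech-1.1* and 0.0243 for *fat-7*. By edgeR *ech-1.1* was called with upper-quartile scaling, at an adjusted p of 0.0423. With the robust edgeR fit *ech-1.1* was not called, at 0.110. Without Cyclo(Pro-Tyr) replicate 1 the log2 fold changes of *ech-1.1* and *fat-7* were -1.73 and -1.32. Without Cyclo(Pro-Tyr) replicate 2 they were -0.86 and -0.84.

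Other genes of the lysosome, where the LIPL proteins work, gave 1 call higher and 0 lower among 30, with a median log2 fold change of 0.02. Of all tested genes 0.715% were called higher and 1.33% lower. At an unadjusted edgeR p under 0.05 there were 9 of the 30, 7 higher and 2 lower, against 27.3% of all tested genes. The call was *ncr-2* (CELE_F09G8.4), a homologue of the Niemann-Pick type C cholesterol transporter. It had 11.98 and 14.4 CPM in the DMSO libraries and 22.1 and 20.9 CPM in the treated libraries, without overlap. Its log2 fold change was 0.71 (standard error 0.13) and an edgeR adjusted p of 0.0484. Among other fits, the call of *ncr-2* was lost without DMSO replicate 1, at 0.227, without DMSO replicate 2, at 0.339, with library totals instead of TMM, at 0.0629, with the legacy edgeR fit, at 0.0506, and where 5 CPM in 2 libraries was required, at 0.0807. DESeq2's Wald test called *ncr-2*, at an adjusted p of 0.0026.

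Markers of stage and tissue were read beside these values. The list of 12 moulting genes had 0 calls by edgeR and a median log2 fold change of -0.95. At an unadjusted p under 0.05 there were 8, all lower, against 27.3% of all tested genes in either direction. With Cyclo(Pro-Tyr) replicate 1 or 2 left out that median was -1.64 or -0.48, and with DMSO replicate 2 left out it was -0.62. Its summed level was 945 and 1316 CPM in the DMSO libraries and 771 and 363 CPM in the treated ones, lowest in Cyclo(Pro-Tyr) replicate 2. The 9 intestine markers had 0 calls and a median of 0.05, and their sum was 9352 and 8161 CPM in DMSO and 7625 and 8858 CPM in treated worms, with overlap. The 7 epidermis markers had 0 calls and a median of -0.51, with sums of 225 and 249 CPM in DMSO and 208 and 144 CPM in treated worms. Of these markers 6 had a negative log2 fold change, and 3 had an unadjusted edgeR p under 0.05, all lower. Of all tested genes 49.7% had a positive log2 fold change, and 27.3% had an unadjusted edgeR p under 0.05. The epidermis median was -0.88 or -0.21 when Cyclo(Pro-Tyr) replicate 1 or 2 was left out, and -0.04 where 5 CPM in 2 libraries was required. No defining marker of intestine or epidermis was at 0. Body wall muscle, neuron and germline markers had medians of 0.28, 0.18 and -0.24. The muscle median was 0.15 without DMSO replicate 1 and 0.41 without DMSO replicate 2. The neuron median was 0.25 without DMSO replicate 1 and 0.10 without DMSO replicate 2. The germline median was -0.39 without Cyclo(Pro-Tyr) replicate 1. The part of stage or tissue make-up in the lipase differences was not tested.

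The genes whose values over the 4 libraries ran most like those of a member were found by the root mean square difference of log2 CPM after centring, among genes averaging at least 10 CPM, of which there were 10124 beside *lipl-1*. With 4 libraries many genes share a pattern, and likeness is a description only. For *lipl-1* these were *grd-6*, a hedgehog-related gene, at a difference of 0.011, and R08F11.7 at 0.044, and 14 genes lay within 0.1. For *lipl-3* they were T28D9.1 and C37C3.9, and for *lipl-4* *gpdh-1* and *irg-3*, at 0.042, 0.044, 0.049 and 0.066. Counts of T28D9.1, *gpdh-1* and *amt-3* are uncertain, since each shares exon bases with an opposite-strand gene, and *msi-1* shares 42 exon bases with R10E9.4 on the same strand. For *lipl-5* they were *clec-65*, a C-type lectin gene, at 0.015 and *ttr-1* at 0.026, both with the highest value in Cyclo(Pro-Tyr) replicate 2 and the lowest in DMSO replicate 2. For *atgl-1* they were *amt-3* and *msi-1*, at 0.011 and 0.012, with 605 genes within 0.1. For *hosl-1*, *hyls-1* and *best-13* lay at 0.0095 and 0.011, and 2715 genes lay within 0.1.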

How the data were processed

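RNA of 4 whole-worm samples was sequenced, per the labels' protocols, on a NextSeq550, single-end, after a stranded total RNA kit. The authors deposited raw counts, whole numbers of reads per gene in 1 column per library, which were not normalised. Bowtie2 and SAMtools are named in the submitters' processing notes, without role or order. The sources used here do not give the build, annotation, counting program or use of strand, so no coordinates are printed. Groups and replicate numbers came from the sample titles, and 0 columns were left unmapped. A treatment label of Cyclo(Pro-Tyr) replicate 2 names replicate 1, and its title was taken instead.

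Of the 21895 rows, 21890 matched the RefSeq table of WBcel235, which gave the symbols, and 21880 had exon lengths and overlaps in the Ensembl WBcel235 annotation. The test was that of edgeR 4.0.16 (R 4.3.3; filterByExpr, TMM, quasi-likelihood test, treatment as the only term), and p-values were adjusted by the Benjamini-Hochberg method over the 19439 tested genes. The filter left out 2456 genes. The script was tested on simulated data. Standard errors are the fold change divided by the root of its F statistic, and 95% intervals use the fit's degrees of freedom. Poisson intervals hold counting error alone: no molecular identifiers were used, so reads are not independent molecules. DESeq2 1.42.0 and limma 3.58.1 served as alternatives, with other scalings, filters and edgeR fits, a replicate block and fits without each library. Figures were drawn with matplotlib 3.10.9.

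The members and lists were chosen with earlier results of these data known, so list counts are descriptions. Named genes are the members, the further *lipl* genes, called genes of each list or else its 2 with the smallest p, and the 2 genes most like each member. Additions to this rule are marked.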

Additional observations from a re-analysis of the deposited data

How the results depend on the processing

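The log2 fold changes of the 6 lipase genes kept their sign in all alternatives in which each was tested. Without single libraries *lipl-1* ran from -0.87 to -0.65, *lipl-5* from 0.28 to 0.72 and *atgl-1* from 0.46 to 0.59. The log2 fold change of *lipl-1* was -0.77 with the filter of 5 CPM in 2 libraries, where it was not called. That of *atgl-1*, called in these fits, was 0.56 with upper-quartile scaling, 0.53 with DESeq2's Wald test and 0.52 with the robust edgeR fit. Called members numbered 2 in each of these 3 fits, 0 with the 5 CPM filter and 0 to 3 without single libraries. Called genes in all numbered 398 in the report, 842 with upper-quartile scaling, 215 with total counts, 1789 with DESeq2's Wald test (undefined for 3015 genes, *lipl-4* among them) and 0 with the 5 CPM filter. Without single libraries they numbered 0 to 4299. For these shifts the cause was not tested. Fits without 1 library assume that the lone library of its group varies like the other group. The 5 CPM filter removed *lipl-4*. The fold change of *lipl-8*, at 5 to 12 counts, ran from -0.23 to 1.13 without single libraries.

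The replicate numbers are not stated to pair the libraries, and same-numbered libraries deviated from their group means with a correlation of -0.202 across genes. With the replicate number as a block, 221 genes and 0 members were called, and *lipl-1* had a log2 fold change of -0.76 at an edgeR adjusted p of 0.0514. Under the block *daf-16* and *ncr-2* were not called, at 0.0605 and 0.0696, *lips-9* stayed called and *dgat-2* was called, at 0.0421. With the pairing crossed, chosen after the data were seen, 4581 genes and 4 members were called.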
